A study of Mus musculus with 12 samples.

Results

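The aminoacyl-tRNA synthetase genes were followed by RNA sequencing in macrophages grown from mouse bone marrow and exposed to ER stress, an LPS stimulus, or both. A list of 36 synthetase symbols was matched by exact symbol to the authors' table of 24346 genes, and all 36 were present. By the naming used for the list, 20 are cytosolic or serve both compartments (Gars and Kars), and the 16 whose symbols end in 2 are mitochondrial. The members were picked by what they encode and not by their values, but with earlier results of these data known. All 36 had at least 1 FPKM (sequenced fragments relative to transcript length and library size) in at least 3 libraries, so all 36 were among the 10311 genes tested.

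The cells of all 12 libraries were wild type (WT in the labels) and had been grown from bone marrow for 7 days in RPMI with 10% serum (FSC in the labels) and the growth factor M-CSF. The 4 groups of 3 libraries were untreated cells (control), cells given LPS (bacterial lipopolysaccharide, which TLR4 detects) at 1 ng/ml for 3 h, cells given tunicamycin (Tm) at 5 ug/ml, and cells given the same dose of tunicamycin for 3 h before the same LPS stimulus. Tunicamycin stops the attachment of N-linked glycans to new proteins, so that unfolded protein builds up in the endoplasmic reticulum (ER). The length of exposure to tunicamycin alone, the mouse strain, and whether libraries of a group came from separate animals or cultures are not stated in the labels, so the p-values measure only the spread between these libraries.

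Each synthetase joins an amino acid to its tRNA, the step that fixes the genetic code. The cytosolic enzymes feed the ribosomes of the cytoplasm and several of them sit in a large multisynthetase complex. A separate set of nuclear genes encodes the enzymes that are imported into mitochondria to charge the mitochondrial tRNAs. When the kinases PERK or GCN2 phosphorylate eIF2alpha, translation of the transcription factor ATF4 increases, and genes for amino acid uptake, amino acid synthesis and many cytosolic synthetases are known ATF4 targets.

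The libraries had a summed FPKM of 561108 to 685010, and their read depth is unknown. All 9 macrophage markers found in the table were expressed, with a summed level of 14482 to 24186 FPKM per library, most of it Lyz2. With tunicamycin 3 of these 9 were lower and 1 higher against control: Cd14 (log2 fold change -1.09), Cd68 (-0.58) and Fcgr1 (-1.15) fell and Adgre1 (0.38) rose. Neutrophil markers, 8 in the table, summed to 86.7 to 126 FPKM in control, 190 to 317 with LPS, 14.3 to 25.8 with tunicamycin and 17.1 to 31.7 with both agents. Stromal markers, 9 in the table, summed to 23.9 to 35.5 FPKM in control, 29.8 to 38.6 with LPS, 43.0 to 61.8 with tunicamycin and 34.2 to 75.5 with both agents. Neutrophil and stromal sums and some macrophage markers therefore moved with tunicamycin, and their part in the results below was not tested. Markers of T and NK cells and of mast cells stayed at or below 1.603 FPKM in sum, with Cd8a and Cpa3 among those at 0 in every library. Dendritic cell markers, 6 in the table, summed to at most 1.14 FPKM without LPS and to 2.18 to 8.78 with it.

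In untreated macrophages the cytosolic genes were the more abundant class per transcript length. Their control means ran from 19.5 ± 2.67 FPKM (SD, n = 3) for Cars, the cysteinyl enzyme, to 112 ± 9.93 for Nars, the asparaginyl enzyme, with a median of 47.5 over the 20 genes. The mitochondrial genes ran from 0.936 ± 0.184 FPKM for Ears2, the glutamyl enzyme, to 201 ± 23.4 for Lars2, the leucyl enzyme, with a median of 7.69 over the 16 genes. Lars2 alone made up 56.8% to 63.3% of the mitochondrial sum in the control libraries, and the next mitochondrial genes were Tars2 at 22.9 and Rars2 at 20.1 FPKM. Replicates of the low genes scattered more: the median coefficient of variation between control libraries was 6.62% for the cytosolic and 19.1% for the mitochondrial genes. The same difference was in the fit, where the median standard error of a log2 fold change was 0.12 for cytosolic and 0.22 for mitochondrial members.

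Tunicamycin raised most cytosolic synthetase genes and 2 mitochondrial ones. Against control, 15 of the 20 cytosolic genes were higher and 0 lower (0 lower also without the adjustment) at an adjusted p under 0.05 (limma on log2(FPKM + 1), Benjamini-Hochberg over all genes tested), while over all genes tested 17.9% were higher and 16.6% lower. Among the 16 mitochondrial genes, 2 were higher and 1 lower, both shares below those of all genes tested. The median log2 fold change was 1.22 for the cytosolic and 0.12 for the mitochondrial members, beside 0.03 for all genes tested. The difference between the classes was not tested. The 20 cytosolic genes summed to 996 ± 10.5 FPKM (SD, n = 3) in control and 2128 ± 102 with tunicamycin, 2.14-fold. The 15 mitochondrial genes other than Lars2 summed to 136 ± 14.4 and 161 ± 4.60 FPKM, 1.18-fold. For these 2 sums, all 3 tunicamycin libraries lay above all 3 control libraries. With Lars2 included the mitochondrial sum was 337 ± 30.8 FPKM in control and 316 ± 59.7 with tunicamycin, 0.937-fold, and the libraries overlapped, so the direction of the mitochondrial sum turns on that gene. In bulk RNA, fewer cells of a type and less RNA per cell cannot be told apart.

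The largest rise was in Aars, the alanyl enzyme (chr8:111033144-111057664, plus strand, mm10, GENCODE M21). Aars read 69.4, 53.6 and 59.96 FPKM in the control libraries and 227, 238 and 238 with tunicamycin. All 3 tunicamycin libraries lay above the highest control value, and the log2 fold change was 1.93 ± 0.11 (SE), adjusted p = 2.46e-09. Over all genes tested, 48.2% had no overlap between control and tunicamycin libraries. Sars, the seryl enzyme (chr3:108424865-108445209, minus strand), read 50.5, 47.2 and 46.3 FPKM in control and 147, 159 and 173 with tunicamycin. Its log2 fold change was 1.71 ± 0.10, adjusted p = 1.60e-09, again with no overlap between the groups. Iars, the isoleucyl enzyme (chr13:49682100-49734267, plus strand), read 27.6, 22.7 and 33.4 FPKM and 83.1, 90.6 and 96.6, and Cars (chr7:143557230-143600090, minus strand) read 22.5, 18.9 and 17.2 and 63.9, 64.1 and 64.0. Both rose by a log2 fold change of 1.67, and the 3 Cars libraries with tunicamycin had an SD of only 0.108 FPKM. Of the exons of Iars, 7.15% of 50-base words also occur in the gene model Gm4849, so part of its signal could be shared with that copy.

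Yars, the tyrosyl enzyme (chr4:129189760-129219607, plus strand), read 27.5, 26.0 and 24.7 FPKM in control and 87.1, 80.4 and 83.0 with tunicamycin, a log2 fold change of 1.64 ± 0.11. Nars was the most abundant cytosolic member in every group, with 100.3, 118 and 116 FPKM in control and 270.4, 354 and 365 with tunicamycin (log2 fold change 1.54 ± 0.12). Gars, the glycyl enzyme of both compartments (chr6:55038007-55079500, plus strand), read 71.5, 68.0 and 76.9 and 185, 198 and 214 FPKM (log2 fold change 1.45 ± 0.09). For these genes every tunicamycin library was above every control library. Eprs, a fused enzyme that charges both glutamate and proline tRNAs (chr1:185363044-185428360, plus strand), rose from 47.3 ± 0.437 FPKM (SD, n = 3) to 137 ± 9.15, a log2 fold change of 1.51 ± 0.11. Lars (leucyl), Tars (threonyl) and Wars (tryptophanyl) rose by 1.31, 1.30 and 1.15 on the log2 scale, from control means of 20.9, 37.9 and 40.1 FPKM.

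**Figure D1:**
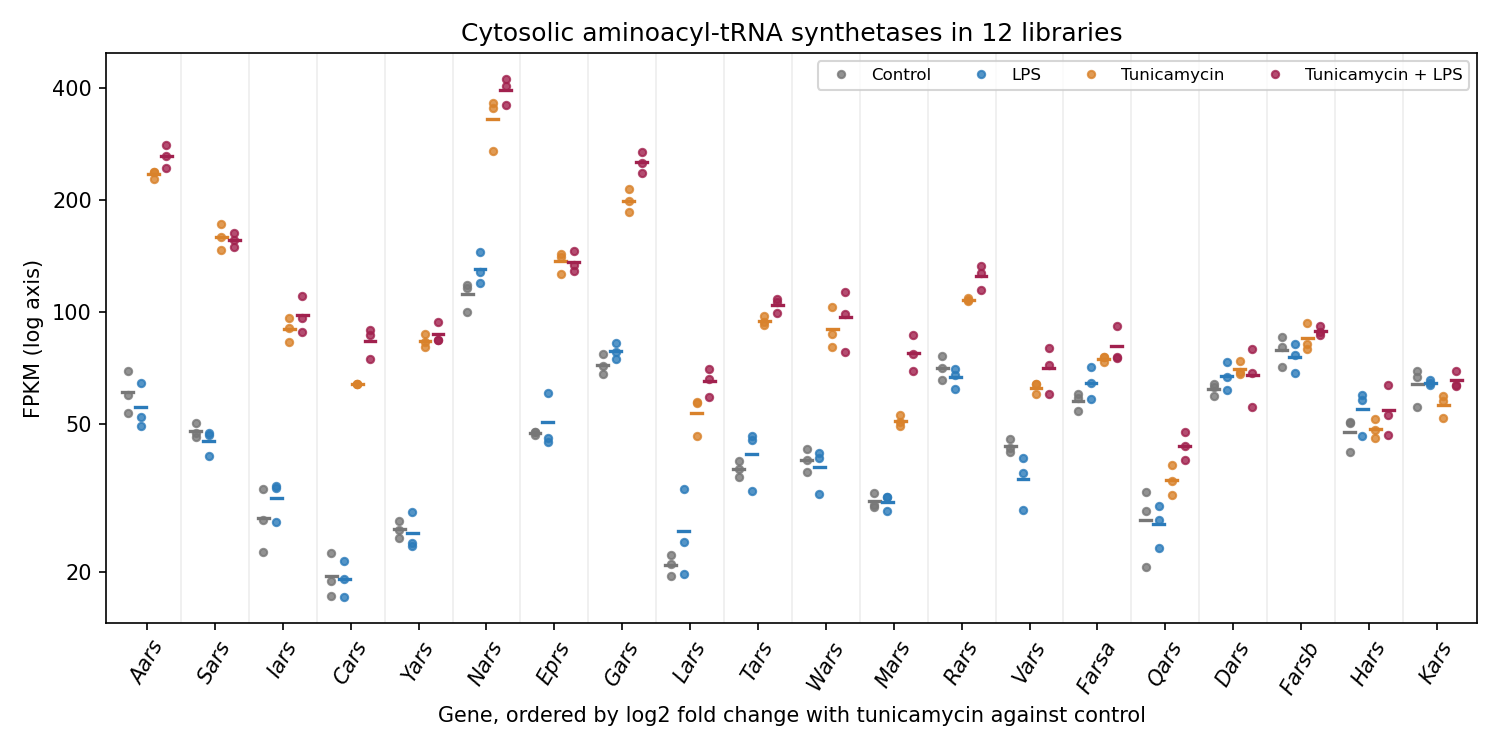
FPKM on a log axis of each cytosolic synthetase gene in the 12 libraries, with 1 point per library and colours for the 4 groups (control, LPS alone, tunicamycin alone and both agents). For Aars the 6 libraries with tunicamycin lie between 227 and 281 FPKM and the 6 without it between 49.4 and 69.4, whereas for Hars every group overlaps every other between 42.2 and 63.7 FPKM.

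The remaining rises were smaller. Mars, the methionyl enzyme, rose by a log2 fold change of 0.70 ± 0.11, Rars (arginyl) by 0.60 ± 0.10, Vars (valyl) by 0.51 ± 0.13 and Farsa, the catalytic subunit of the phenylalanyl enzyme, by 0.37 ± 0.11 (adjusted p = 0.0134). Mars shares 68 exon bases with Ddit3, which also rose with tunicamycin, and the part of shared reads in the Mars rise was not tested. Without control replicate 3 the adjusted p of Farsa was 0.0577, so its call rests on that library. The partner subunit Farsb read 71.4, 85.5 and 80.4 FPKM in control and 93.6, 82.0 and 79.5 with tunicamycin, with a log2 fold change of 0.10 and a 95% interval of -0.12 to 0.33. Values of the 2 groups overlapped for Farsb. Exons of Farsb share bases with Sgpp2 on the other strand, which stayed at or below 0.263 FPKM.

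Of the 5 cytosolic genes that did not pass, none fell by the test either. Kars, the lysyl enzyme of both compartments, read 55.6, 69.2 and 66.8 FPKM in control and 59.4, 57.5 and 51.8 with tunicamycin, with a log2 fold change of -0.18 (95% interval -0.40 to 0.05). Hars, the histidyl enzyme, read 42.2, 50.3 and 50.7 and 51.7, 45.9 and 48.1 FPKM (log2 fold change 0.03, 95% interval -0.25 to 0.31). Dars, the aspartyl enzyme, read 63.0, 64.0 and 59.4 and 69.0, 68.1 and 73.9 (log2 fold change 0.17, 95% interval -0.08 to 0.43). The Dars libraries with tunicamycin lay above those of control, while for Kars and Hars the 2 groups overlapped. For these 3 genes and Farsb the intervals leave out a log2 change of 1 in either direction, while the 11 largest cytosolic rises were above that size. Qars, the glutaminyl enzyme, read 32.8, 20.7 and 29.2 and 38.9, 35.2 and 32.2 FPKM, with a log2 fold change of 0.37 (95% interval 0.04 to 0.70, adjusted p = 0.0806). Its tunicamycin library 3 lay below control library 1, and without that control library the adjusted p was 0.0311.

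Members of the multisynthetase complex were spread over the whole range of responses. Of its 8 synthetases (Eprs, Lars, Iars, Mars, Qars, Rars, Kars and Dars), 5 rose and 3 did not pass, with a median log2 fold change of 0.65. Of the 12 cytosolic genes outside it, 10 rose and 2 did not pass, with a median of 1.38. The complex members together went from 352 ± 2.02 FPKM (SD, n = 3) to 602 ± 17.7. None of the 3 scaffold genes of the complex passed, and their log2 fold changes ran from -0.18 to 0.12. Over all genes tested 17.9% were higher and 16.6% lower. Aimp1 was at 42.9 ± 5.77 FPKM in control and 37.6 ± 0.314 with tunicamycin, Aimp2 at 41.7 ± 9.50 and 44.9 ± 6.42, and Eef1e1 at 47.3 ± 4.98 and 41.8 ± 1.22. By catalytic fold, 8 of 9 class I and 6 of 10 class II cytosolic genes rose, leaving aside Eprs, which carries both. The difference between these subsets was not tested.

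Synthetase windows at transcription start sites were searched for a short motif because many members rose together. From RefSeq promoter windows of GRCm38.p6 (250 bases before to 50 bases after the start site), 27 of the 36 members were matched, 13 cytosolic and 14 mitochondrial. The 8 letters TGATGNAA, core of the C/EBP-ATF composite element through which ATF4 can bind, were searched on both strands. Of the 27 members 5 had a match in their window: Aars, Gars, Iars, Tars and Yars. Members were counted by gene, and Aars2 had 2 windows. Of all 32851 windows of that length, counted by window, 3.97% had a match. The 5 genes with a match are all cytosolic and among the 11 members with a window that rose with tunicamycin. Of the 14 mitochondrial members with a window, 0 had a match. For each gene 1 match is shown with 11 bases on each side, read 5′ to 3′ on the strand that carries the motif, with the matched letters in capitals.
Aars, chr8:111033840-111033869, minus strand: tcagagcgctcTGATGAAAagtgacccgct
Gars, chr6:55037960-55037989, minus strand: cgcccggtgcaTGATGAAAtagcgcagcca
Iars, chr13:49682126-49682155, minus strand: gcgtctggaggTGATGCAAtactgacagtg
Tars, chr15:11399655-11399684, plus strand: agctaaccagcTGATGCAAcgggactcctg
Yars, chr4:129189895-129189924, plus strand: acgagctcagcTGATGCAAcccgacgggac

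No window was matched for Cars, Hars, Lars, Nars, Rars, Vars, Wars, Hars2 and Pars2. Counted along each gene, with the first transcribed base as 1, the matched letters shown begin at 10 in Aars, -30 in Gars, 8 in Iars, -15 in Tars and 4 in Yars. Genes that rose as much had no match in their window: Sars and Eprs were among the 6 of 11 without one. The full cyclic AMP response element, TGACGTCA, was found for 0 of the 27 members and in 1.79% of all windows. The interferon-stimulated response element core, GAAANNGAA, was in the Qars window only, beside 8.56% of all windows. A match describes letters, not binding, and its absence says nothing about the factor.

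Among the mitochondrial genes, Fars2 and Sars2 rose and Cars2 fell with tunicamycin. Fars2, the phenylalanyl enzyme (chr13:36117412-36726280, plus strand), read 14.0, 13.4 and 14.0 FPKM in control and 25.8, 27.1 and 21.2 with tunicamycin, a log2 fold change of 0.79 ± 0.15 (adjusted p = 6.92e-04) with no overlap. Sars2, the seryl enzyme, read 8.48, 9.57 and 6.64 and 13.4, 13.3 and 12.8 FPKM (log2 fold change 0.63 ± 0.23, adjusted p = 0.0399). Cars2, the cysteinyl enzyme, fell, from 14.99, 15.9 and 13.6 to 10.2, 9.32 and 11.6 FPKM (log2 fold change -0.48 ± 0.16, adjusted p = 0.0315). Neither pair of groups overlapped, as for 48.2% of all genes tested, and both calls sit close to the threshold. The Sars2 call was lost under quantile normalization, without the filter on low values, without the trend in the fit, and without control replicate 1 or 3 or any one tunicamycin library (adjusted p up to 0.146), and the Cars2 call without control replicate 1 or 2 or tunicamycin replicate 1 or 2 (adjusted p up to 0.117). Exons of Fars2 share 501 bases with Nrn1, which stayed at or below 0.0762 FPKM, and 115 bases with Lyrm4, which reached 10.5 FPKM, both on the other strand.

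**Figure D2:**
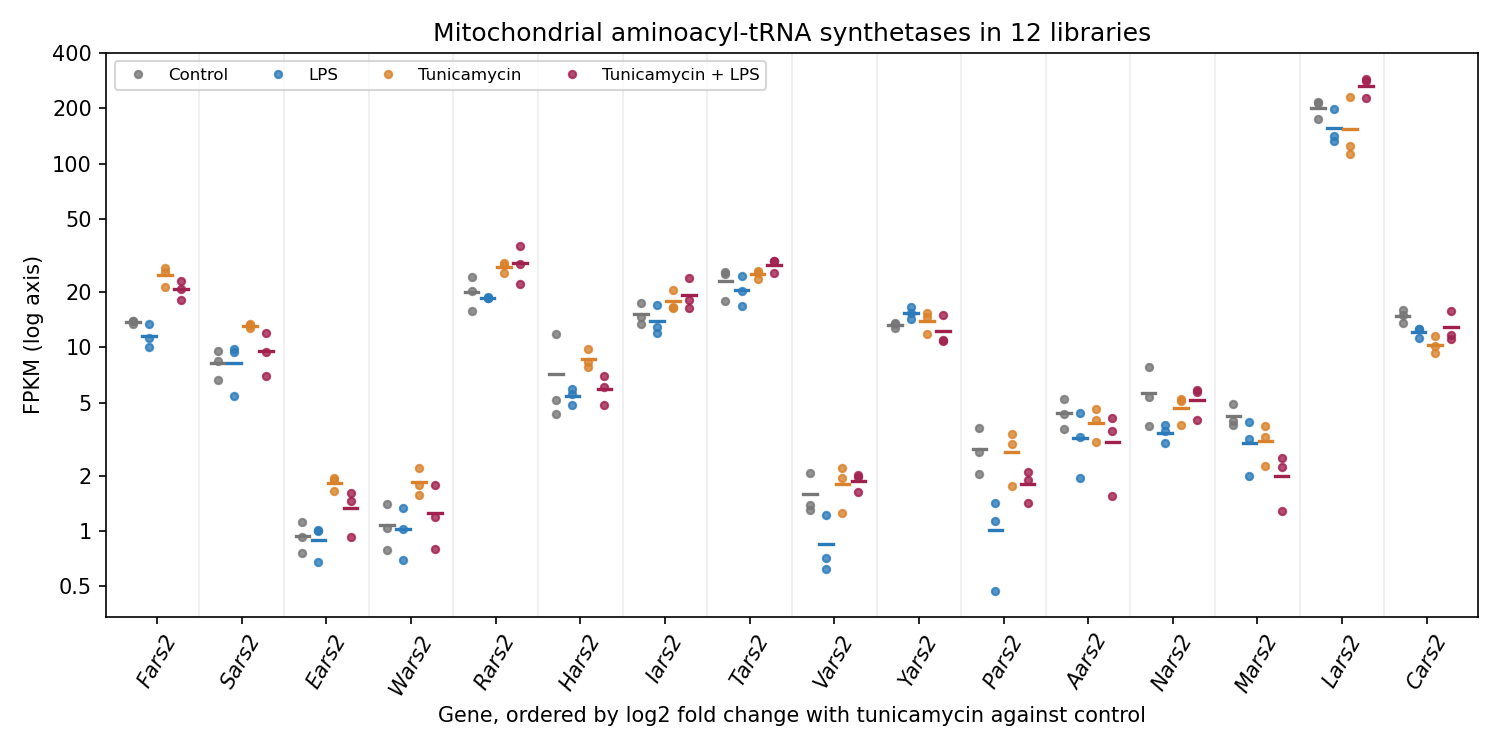
FPKM on a log axis of each mitochondrial synthetase gene in the 12 libraries, with 1 point per library and colours for the 4 groups. Lars2 lies between 112 and 290 FPKM and every other gene below 36; only Fars2 has all 6 tunicamycin libraries (18.2 to 27.1) well above all 6 others (10.1 to 14.0).

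The 13 mitochondrial genes that did not pass ranged in log2 fold change from -0.44 (Lars2) to 0.55 (Ears2). Ears2 passed without the filter on low values (adjusted p = 0.0279) and without the trend (0.0133). Without tunicamycin replicate 1, Lars2 passed as lower at -0.76 (adjusted p = 0.00211). Rars2, the arginyl enzyme, was near the threshold at 0.45 ± 0.17 (adjusted p = 0.0516), with 15.8, 24.3 and 20.2 FPKM in control and 25.3, 29.0 and 28.2 with tunicamycin. It passed with the replicate number as a block (adjusted p = 0.0330), with a filter at 5 FPKM (0.0429), with only the libraries of the comparison fitted (0.0385), without control replicate 2, or without replicate 1 or 3 with both agents, which share the estimate of the spread (adjusted p down to 0.0218). Of the 7 mitochondrial genes with a control mean of at least 10 FPKM (Cars2, Fars2, Iars2, Lars2, Rars2, Tars2 and Yars2), 1 rose and 1 fell. Over all genes tested 17.9% were higher and 16.6% lower, so these shares were near those of all genes. The log2 fold changes of the 7 ran from -0.48 to 0.79. For Hars2, whose exons overlap those of Hars head to head, control library 2 stood apart at 11.9 FPKM beside 4.36 and 5.20. Without it the log2 fold change of Hars2 was 0.73 (adjusted p = 0.0158) in place of 0.35 (0.345).

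Pairing each mitochondrial gene with the cytosolic gene for the same amino acid gave 16 pairs, with Eprs serving both glutamate and proline. The cytosolic log2 fold change was the larger in 14 of the 16 pairs. For alanine it was 1.93 for Aars against -0.14 for Aars2, and for tyrosine 1.64 for Yars against 0.06 for Yars2. The exceptions were phenylalanine (Farsa 0.37, Fars2 0.79) and histidine (Hars 0.03, Hars2 0.35). As a class ratio, the cytosolic sum divided by the mitochondrial sum without Lars2 was 6.58 to 7.96 in the control libraries and 12.9 to 13.6 with tunicamycin.

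**Figure D3:**
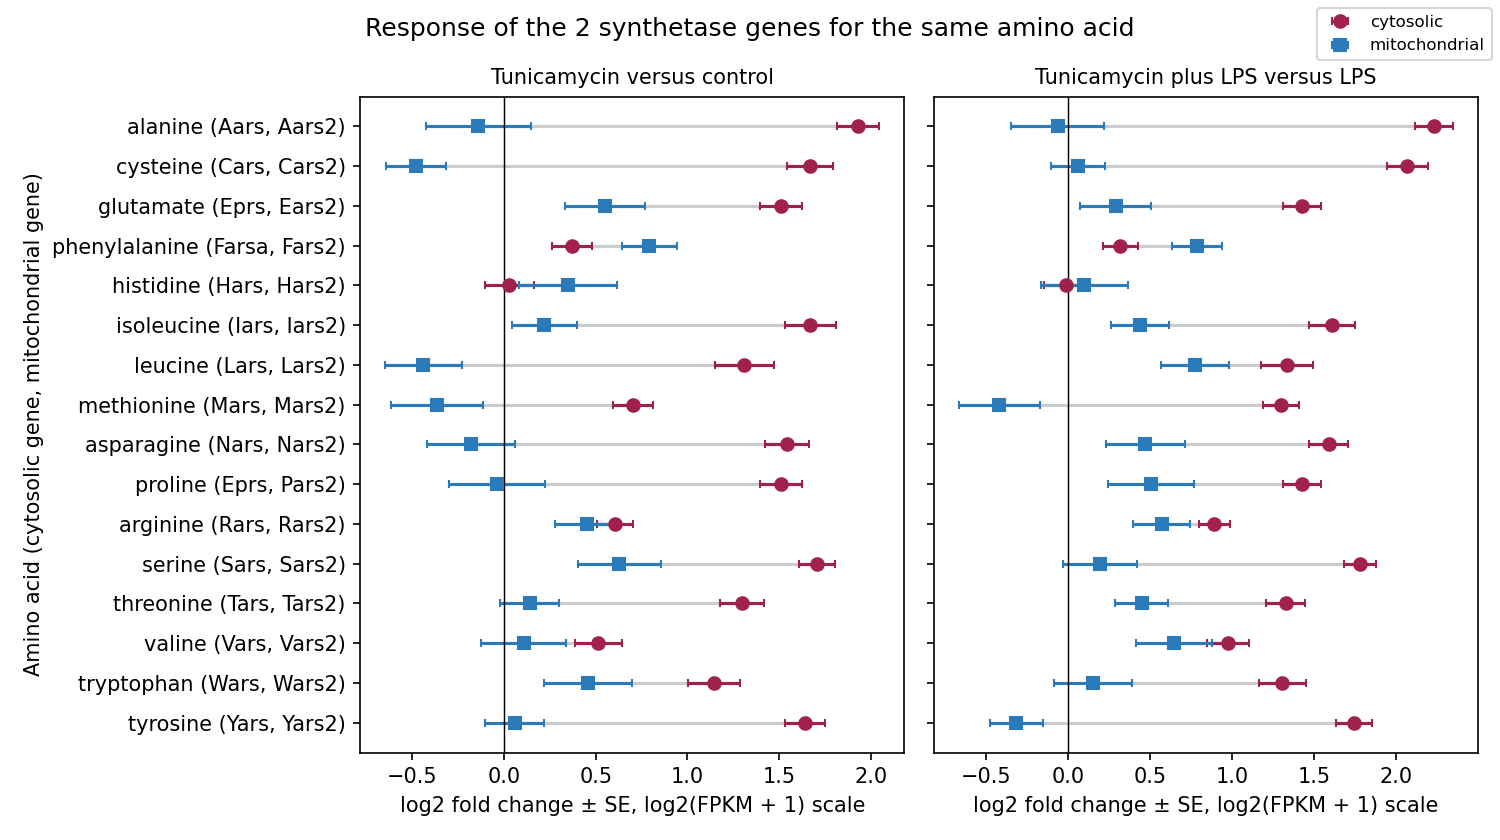
Log2 fold change of the cytosolic gene and of its mitochondrial partner for each of 16 amino acids, tunicamycin versus control and tunicamycin plus LPS versus LPS, with bars for 1 standard error. The cytosolic value is the larger in 14 of 16 pairs in both comparisons.

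The comparison of both agents with LPS alone takes its group means from libraries that the comparison above does not, a second reading of the tunicamycin response. The spread was estimated over all 12 libraries for both comparisons, so their calls are not independent. Against LPS alone, 16 of 20 cytosolic genes were higher and 0 lower, with a median log2 fold change of 1.32. Over all genes tested 13.8% were higher and 15.1% lower, with a median of 0.00. All 15 genes called without LPS were among these 16, 100% of the first list and 93.8% of the second, and the addition was Qars at 0.68 ± 0.16 (adjusted p = 0.00402). Qars read 30.2, 23.3 and 27.6 FPKM with LPS and 40.0, 43.8 and 47.6 with both agents, with no overlap. The largest rises were in Aars, Cars, Sars and Yars. Aars changed by 2.23 ± 0.11, Cars by 2.07 ± 0.13, Sars by 1.78 ± 0.10 and Yars by 1.74 ± 0.11. Aars read 52.3, 64.5 and 49.4 FPKM with LPS and 244, 281 and 263 with both agents, and Cars 19.2, 17.1 and 21.4 and 75.00, 86.5 and 89.6. All 3 libraries with both agents lay above all 3 LPS libraries for each. Over all genes tested, 40.3% had no overlap between these groups.

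Farsb, Kars, Dars and Hars again did not pass, at 0.23, 0.02, -0.00016 and -0.01, with 95% intervals of 0.01 to 0.45, -0.21 to 0.24, -0.26 to 0.26 and -0.29 to 0.27. For Farsb the 3 libraries with both agents, at 86.96 to 91.5 FPKM, nevertheless lay above the 3 with LPS alone, at 68.8 to 82.2. Farsa passed at 0.32 ± 0.11 (adjusted p = 0.0353), a call that was lost without the trend, with only the libraries of the comparison fitted, and without LPS replicate 1 or 3 or replicate 2 with both agents (adjusted p up to 0.141). Within the complex 6 of 8 genes rose (median 1.10) and outside it 10 of 12 (median 1.46). These subsets were not tested against each other.

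In this comparison 5 of the 16 mitochondrial genes were higher and 0 lower, with a median log2 fold change of 0.36. All genes tested had 13.8% higher and 15.1% lower, with a median of 0.00. Fars2 was the only mitochondrial gene that passed in both tunicamycin comparisons, 1 of the 2 called without LPS and 1 of the 5 called with it. Fars2 read 13.5, 11.2 and 10.1 FPKM with LPS and 20.9, 22.9 and 18.2 with both agents, at 0.79 ± 0.15 (adjusted p = 9.79e-04). The others were Lars2 at 0.77 ± 0.21, Vars2 (valyl) at 0.65 ± 0.23, Rars2 at 0.57 ± 0.17 and Tars2 (threonyl) at 0.45 ± 0.16. Apart from Fars2, these calls depended on single libraries. Tars2 and Vars2 (adjusted p = 0.0474 and 0.0477) each lost the call in 13 of the other settings, up to 0.193 and 0.137. For Tars2 the libraries whose absence ended the call were control 3, LPS 1 and 3, tunicamycin 1 to 3 and both agents 2 and 3. For Vars2 they were control 1 and 3, LPS 1 and 3, tunicamycin 1 to 3 and both agents 1 to 3. Rars2 lost it without LPS replicate 1 or 2 or replicate 3 with both agents (up to 0.102). Iars2, the isoleucyl enzyme, at 0.44 (adjusted p = 0.0744), passed only without LPS replicate 2 or without replicate 1 with both agents (down to 0.0386).

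With LPS alone no cytosolic synthetase gene passed. Of the 20, 0 were higher and 0 lower by limma (0 and 1 at an unadjusted p under 0.05), with a median log2 fold change of 0.01, while 10.5% of all genes tested were higher and 7.86% lower. The 20 values ran from -0.30 (Vars) to 0.26 (Lars), and the cytosolic sum was 1030 ± 77.0 FPKM (SD, n = 3) beside 996 ± 10.5. Under quantile normalization, which forces all libraries to one distribution, this median turned to -0.10 and Vars passed as lower (adjusted p = 0.0358). Wars, which is known as an interferon-induced synthetase in human cells, read 37.3, 40.1 and 42.9 FPKM in control and 41.7, 40.7 and 32.5 with LPS (log2 fold change -0.07 ± 0.14). In the same libraries 10 of 12 tested interferon-induced genes were higher and 0 lower, among them Irf1, which went from 20.4 ± 3.65 to 316 ± 47.9 FPKM. With tunicamycin alone 11 of the 12 were higher and 0 lower, with Irf1 at 52.2 ± 6.70 FPKM, beside 17.9% of all genes tested higher and 16.6% lower. Wars was among the 15 cytosolic synthetase genes that rose with tunicamycin. Whether its rise is tied to interferon was not tested.

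Of the 16 mitochondrial genes 1 was lower with LPS, Pars2, the prolyl enzyme, and 0 higher, with a median log2 fold change of -0.23. Over all genes tested 7.86% were lower and 10.5% higher, so the share that was lower was near that of all genes. Pars2 read 2.05, 3.63 and 2.69 FPKM in control and 1.14, 1.42 and 0.472 with LPS (log2 fold change -0.93 ± 0.26, adjusted p = 0.0201). The groups did not overlap at these low levels, as for 33.7% of all genes tested. The call was lost without control replicate 2 or 3 or LPS replicate 3 (adjusted p up to 0.105), and Pars2 does not reach a filter of 5 FPKM. Nars2 fell past the threshold only without control replicate 1 (adjusted p = 0.0472, log2 fold change -0.54 with all libraries).

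With both agents 3 members were higher than with tunicamycin alone, a share near that of all genes. The length of exposure to tunicamycin alone is not stated, so LPS and a difference in exposure time cannot be told apart. Against tunicamycin alone, 2 of 20 cytosolic genes (Gars and Mars) and 1 of 16 mitochondrial genes (Lars2) were higher and 0 lower, beside 8.69% of all genes tested higher and 7.00% lower. The median log2 fold change was 0.16 for the cytosolic members and -0.21 for the mitochondrial ones. Under quantile normalization the cytosolic median turned to -0.06, so its sign depends on the scaling. Gars read 185, 198 and 214 FPKM with tunicamycin and 268, 237 and 252 with both agents (log2 fold change 0.34 ± 0.09, adjusted p = 0.0182). All 3 Gars values with both agents lay above the 3 with tunicamycin alone, while 31.7% of all genes tested had no overlap between these groups. The Gars call was lost under quantile normalization (adjusted p = 0.381) and without the trend (0.0711). It was also lost without tunicamycin replicate 1 or 2 or replicate 1 with both agents (adjusted p up to 0.0829). Cars, at 0.38 ± 0.13 (adjusted p = 0.0520), passed in 5 of the other settings, among them those without control replicate 1, LPS replicate 3 or replicate 1 with both agents (down to 0.0374).

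Mars and Lars2 were also the only members whose LPS effect differed between cells with and without tunicamycin by the test of that difference (interaction; 1.41% of all genes tested were higher and 1.96% lower). Mars (chr10:127296221-127311786, minus strand) read 32.6, 30.4 and 29.9 FPKM in control, 29.1, 31.9 and 31.8 with LPS, 50.8, 52.9 and 49.3 with tunicamycin and 69.6, 77.0 and 86.6 with both agents. The control and LPS libraries overlapped, the tunicamycin libraries lay above all of them, and the libraries with both agents lay above all the others. The LPS effect was 0.59 ± 0.11 with tunicamycin and -0.0027 ± 0.11 without, a difference of 0.60 ± 0.15 (adjusted p = 0.0421). Exposure time to tunicamycin may differ between the groups here too, because its length without LPS is not stated. The adjusted p of the difference ran from 0.0241 to 0.111 over the other settings, and it was above 0.05 when any one library other than replicate 1 with both agents was left out. The rise of Mars over tunicamycin alone kept its call in the 21 other settings that set no minimum fold change (adjusted p 0.000832 to 0.0111).

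The last exons of Mars and of Ddit3, the ER-stress factor CHOP, lie tail to tail on opposite strands and share 68 bases, 1.99% of the Mars exons. The strand setting of the counting was not stated in the labels or notes, so reads from the shared bases cannot be told apart. Ddit3 was at 45.6 ± 6.17 FPKM (SD, n = 3) in control, 42.4 ± 6.96 with LPS, 1601 ± 145 with tunicamycin and 1093 ± 230.1 with both agents. By group means Ddit3 was lower with both agents than with tunicamycin alone, and Mars was higher. Against control both genes rose with tunicamycin. The part of shared reads in the Mars rise was not tested in either comparison. Aars shares more of its exons, 1326 bases or 14.3%, with Exosc6 on the same strand, which was at 20.7 ± 4.11 FPKM in control and 11.0 ± 0.637 with tunicamycin. Among mitochondrial members Iars2 shares 2034 bases or 22.9% with Rab3gap2 on the other strand, at 23.1 ± 1.80 and 34.4 ± 1.52 FPKM in control and with tunicamycin.

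Lars2 (chr9:123366927-123462666, plus strand) read 213, 217 and 175 FPKM in control, 197, 141 and 133 with LPS, 229, 124 and 112 with tunicamycin and 227, 281 and 290.3 with both agents. Tunicamycin replicate 1 stood apart from the other 2 of its group and was as high as the lowest library with both agents. The LPS effect was 0.84 ± 0.21 with tunicamycin and -0.37 ± 0.21 without, a difference of 1.21 ± 0.30 (adjusted p = 0.0307). Leaving out tunicamycin replicate 1 gave a difference of 1.53 (adjusted p = 0.000573), and leaving out tunicamycin replicate 3 gave 1.02 (0.0859). The call also ended without control replicate 1 or 2, LPS replicate 2 or 3, tunicamycin replicate 2, or replicate 2 or 3 with both agents, at adjusted p up to 0.0916, and without the filter on low values (0.152), without the trend (0.107), with the robust fit (0.0672) and under quantile normalization (0.0597). The call against LPS alone ended without LPS replicate 3 (adjusted p = 0.0525) and without the filter (0.0583). The call against tunicamycin alone ended without tunicamycin replicate 2 or 3 (up to 0.0653), without the filter (0.0648) and under quantile normalization (0.0604).

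Within groups the level of Lars2 varied with that of Rn45s, the 45S precursor of ribosomal RNA, a gene named after its values were seen. Rn45s read 545, 547 and 450.2 FPKM in control, 448, 326 and 375 with LPS, 411, 246 and 230 with tunicamycin and 424, 535 and 562 with both agents. In each of the 4 groups the same library was the highest for both genes, tunicamycin replicate 1 among them. Between groups the genes did not keep 1 ratio: Lars2 divided by Rn45s was 0.354 to 0.440 in the 6 libraries without tunicamycin and 0.489 to 0.558 in the 6 with it, with no overlap. The part of Rn45s in the Lars2 result was not tested.

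**Figure D4:**
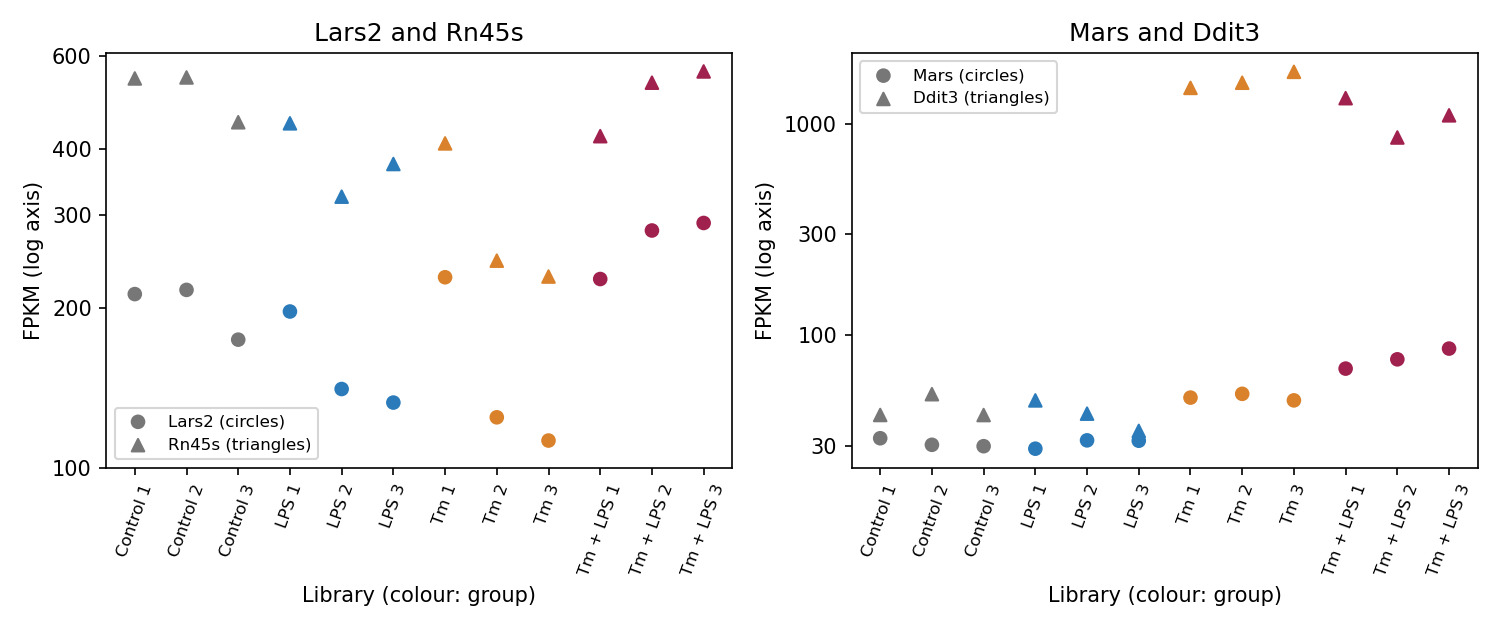
FPKM in each of the 12 libraries of Lars2 and Rn45s and of Mars and Ddit3, by group, with 1 point per library. Tunicamycin replicate 1 is the highest of its group for both Lars2 (229 FPKM) and Rn45s (411). With both agents Lars2 lies above control and Rn45s overlaps it. The part of Rn45s in the Lars2 levels was not tested. Mars is highest with both agents (69.6 to 86.6) and Ddit3 with tunicamycin alone (1478 to 1760).

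Most genes of the ATF4 amino acid response rose with tunicamycin. Of 27 tested, 23 were higher and 1 lower against control (median log2 fold change 1.71), and 24 higher and 1 lower with both agents against LPS alone (median 2.01). Over all genes tested, 17.9% were higher and 16.6% lower in the first comparison, and 13.8% and 15.1% in the second. The 1 listed gene lower in both was Slc1a5, a glutamine transporter, at -0.92 ± 0.18 and -1.66 ± 0.18. The list was chosen with earlier results of these data known, so its direction is no independent evidence. Atf4 itself went from 33.5 ± 0.959 to 228 ± 17.95 FPKM (SD, n = 3), and Asns, the asparagine synthetase, from 21.7 ± 3.59 to 209 ± 17.96. Trib3, a pseudokinase induced by ATF4 and CHOP, went from 3.49 ± 0.754 to 378 ± 9.26 FPKM, and Hspa5, the ER chaperone BiP, from 841 ± 73.2 to 9594 ± 2056. With LPS alone 5 of the 27 were higher and 2 lower, beside 10.5% of all genes tested higher and 7.86% lower. Asns (higher) was at 29.5 ± 3.82 FPKM and Trib3 (lower) at 1.48 ± 0.468. Eif2ak4, which encodes the uncharged-tRNA sensor GCN2, was at 3.05 ± 1.03 FPKM in control and 2.55 ± 0.958 with tunicamycin and did not pass. Of the 6 genes listed around GCN2, 3 rose with tunicamycin: Atf4, Sesn2 (log2 fold change 2.55 ± 0.15) and Eif2s1 (0.28 ± 0.08), the alpha subunit of eIF2.

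Other steps around the charged tRNA held both responding and non-responding genes. Of 21 tested genes for cytosolic tRNA maturation and export, 5 rose with tunicamycin and 0 fell, with a median log2 fold change of 0.16, beside 17.9% of all genes tested higher and 16.6% lower. The share that rose was thus near that of all genes. The largest rises were Tsen54 (0.93 ± 0.24), a tRNA splicing endonuclease subunit, Mettl1 (0.78 ± 0.24), a tRNA guanosine methyltransferase, Xpot (0.63 ± 0.14), the tRNA exportin, and Trnt1 (0.50 ± 0.19), which adds the CCA end. Of 7 proofreading and synthetase-like genes, 3 rose and 1 fell: Prorsd1 (1.45 ± 0.16), Ptrh2 (0.95 ± 0.22), a peptidyl-tRNA hydrolase, and Yrdc (0.66 ± 0.12) rose, and Aarsd1 (-0.44 ± 0.15) fell. Of 7 elongation factor genes, Eef2k, the kinase that inhibits eEF2, rose (1.43 ± 0.19), and Eef1g (-0.53 ± 0.09) and Eef1d (-0.38 ± 0.11), subunits of the exchange factor of eEF1A, fell. Whether these lists differ from the synthetases was not tested.

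Among the partners of the mitochondrial synthetases, the counts that rose with tunicamycin were near or below the 17.9% of all genes tested that were higher. Of 16 genes for mitochondrial tRNA amidation and processing, Cdk5rap1 (1.01 ± 0.20) and Trit1 (0.80 ± 0.23), both tRNA-modifying enzymes, rose with tunicamycin and Hsd17b10 (-0.52 ± 0.12), a subunit of mitochondrial RNase P, fell. Of 13 mitochondrial translation factor genes, Mtif2 (0.72 ± 0.19), an initiation factor, and Tsfm (0.55 ± 0.18), an elongation factor, rose and 0 fell. With both agents against LPS alone, 2 of the 16 and 1 of the 13 rose and 0 fell, beside 13.8% of all genes tested higher and 15.1% lower, with Mtif2 at 1.00 ± 0.19 and Cdk5rap1 at 0.71 ± 0.20. Eef1e1 was the 1 scaffold gene of the multisynthetase complex that responded to LPS, at 69.6 ± 5.13 FPKM beside 47.3 ± 4.98 in control (log2 fold change 0.55 ± 0.13, adjusted p = 0.00604).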

How the data were processed

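RNA from 12 macrophage libraries, 3 per group, was analysed as FPKM deposited by the authors, with a single value for each gene symbol in each library. Per the submitters' processing notes, mm10 was the build and the tools were Cufflinks 2.2.1, TopHat2 2.0.13, SAMtools 0.1.19 and Bowtie2 2.2.3. The annotation, strand setting and between-library scaling are not given there. All 12 value columns matched a sample. Read depth is unknown, so precision is the spread between libraries, and FPKM cannot show a change in total RNA per cell.

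Genes with at least 1 FPKM in at least 3 libraries (10311) were fitted as log2(FPKM + 1) with limma 3.58.1 in R 4.3.3 (lmFit, contrasts.fit and eBayes with trend), with 1 mean per group over all 12 libraries. The pseudocount of 1 understates the fold change of low genes. The call was an adjusted p (Benjamini-Hochberg over all genes tested) under 0.05. Errors of log2 fold changes are standard errors. For the interaction, the LPS effect without tunicamycin was subtracted from that with it. The fit was tested on simulated data.

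The members and gene lists were chosen with earlier results of these data known. Every synthetase is named or counted. Of each other list, the genes named for a contrast are among the 4 with the largest change that passed, beside Atf4, Ddit3, Asns, Trib3, Eif2ak4, Hspa5, Irf1, Aimp1, Aimp2 and Eef1e1. Slc1a5 and Rn45s were named after their values were seen. Some markers and 1 promoter match are not reported here. Coordinates are from GENCODE M21 and promoter windows from RefSeq (GRCm38.p6). Matplotlib 3.10.9, with pandas 2.3.3 in Python 3.11.15, drew the figures.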

Additional observations from a re-analysis of the deposited data

Results flagged for a closer look

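For 2 synthetase genes the LPS effect differed between cells with and without tunicamycin by the test of the difference itself (limma interaction, adjusted over all genes tested). The difference was 0.60 on the log2 scale for Mars (SE 0.15, adjusted p = 0.0421), with the 3 libraries with both agents above the 3 with tunicamycin alone. It was 1.21 for Lars2 (SE 0.30, adjusted p = 0.0307), with 2 of the 3 libraries with both agents above all 3 with tunicamycin alone. Mars shares 68 exon bases with Ddit3, and in each group the library highest in Lars2 was also the highest in Rn45s. The part of either in the result was not tested. The length of exposure to tunicamycin alone is not stated, so exposure time and LPS cannot be told apart in these differences.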

How the results depend on the processing

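Precision is limited by 3 libraries per group and unknown read depth, most of all for the mitochondrial genes of a few FPKM. Over the 36 members, 5 contrasts and the alternatives run, 3713 values were compared with the reported ones: 3606 stayed on their side of the threshold, 87 lost the call, 20 gained it and 0 called values changed sign. Many settings left the group means as they were, so no sign could change there. These were the changes of filter, trend, robust fit or replicate block, and the fit of only the libraries of the comparison. Leaving out a library of a group outside the comparison was another. Of the 3606, 3489 kept their sign and 117 that were not called changed it, 24 of them under quantile normalization, among these 11 for both agents against tunicamycin. Over the 21 other settings without a minimum fold change, 14 to 16 cytosolic genes were higher with tunicamycin against control and 15 to 16 with both agents against LPS alone, and 1 to 4 and 2 to 5 mitochondrial genes.

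Requiring a log2 fold change of at least 1 left 858 genes called for LPS, 1043 for tunicamycin, 785 for both agents against LPS and 602 for both agents against tunicamycin. Synthetases then called higher were 11, 12 and 0 in the last 3 of these and 1 for the interaction, and synthetases called lower were 0 for LPS and 0 for tunicamycin. A filter at 5 FPKM left 0 synthetases lower with LPS and quantile normalization gave 2. Quantile normalization left 1 higher with both agents against tunicamycin and 0 for the interaction, and moved the share of higher calls among all called genes from 57.2% to 48.0% for LPS and from 55.4% to 44.9% for both agents against tunicamycin. For the interaction, synthetases called higher were 1 with no filter, 1 with the robust fit and 0 without trend. The cause of these shifts was not tested.

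With each replicate left out in turn, synthetases lower with LPS numbered 0 to 2 and lower with tunicamycin 0 to 1. Synthetases higher with both agents against tunicamycin numbered 1 to 4 and in the interaction 0 to 2. Genes called numbered 1064 to 1652 with both agents against tunicamycin, lowest without tunicamycin replicate 2, and 229 to 353 for the interaction, lowest without tunicamycin replicate 3.

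Whether the replicate numbers shared between groups pair the libraries is not stated in the labels. Deviations of same-numbered libraries from their group means correlated at -0.04 to 0.09 (18 pairs, median 0.02). Differently numbered libraries gave -0.11 to 0.05 (36 pairs, median -0.0004). Correlations this weak cannot decide whether the libraries are paired. With the replicate number as a block, 1 synthetase (Lars2) was higher in the interaction in place of 2 (Mars, adjusted p = 0.0597). The block also gave Rars2 the call for tunicamycin (0.0330) and took that of Vars2 for both agents against LPS (0.0531).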
